A study of Mus musculus with 8 samples.

Results

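The respiratory chain and ATP synthase subunits that the nucleus encodes were represented by 83 genes of the 18193 measured in mouse corneas. They were chosen by name from the array's probe-to-gene table. The rule uses no measured value, but it was set with earlier results of these data known. It took symbols beginning with Ndufa, Ndufb, Ndufc, Ndufs, Ndufv, Uqcr, Cox4i, Cox5, Cox6, Cox7, Cox8 or Atp5, and Sdha, Sdhb, Sdhc, Sdhd and Cyc1. Pseudogenes and the Ndufaf assembly factors were left out, as were probe sets with several symbols. The rule gave 36 genes of complex I, 4 of complex II, 9 of complex III, 17 of complex IV and 17 of complex V. Corneal total RNA of mice with TGF-beta overexpression (TGFB, 4 arrays) was compared with that of wildtype littermates (4 arrays). The labels give no isoform, promoter, producing tissue, age or strain. They do not tie arrays to separate animals either, and a p-value here reflects the scatter of these arrays alone, part or all of which may be technical.

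Complexes I and II pass electrons from NADH and succinate to ubiquinone, complex III passes them on to cytochrome c, and complex IV, cytochrome c oxidase, hands them to oxygen. Complexes I, III and IV pump protons, and complex V, the ATP synthase, makes ATP as the protons flow back. Most subunits are nuclear genes read by a shared set of factors, among them NRF1, GABPA, YY1 and the estrogen-related receptors. Several complex IV subunits exist as a common form and as a form of muscle or testis.

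The upstream sequences of 4 members are shown, chosen by their values: Uqcr10, Uqcr11 and Cox8a had the 3 smallest p-values of all members, and Atp5l the smallest of complex V. All come from RefSeq on GRCm38.p6, cover 250 bases up to the start site in the direction of transcription, and have matches to a searched motif in capitals. Uqcr10 lies at chr11:4704345-4704594 (minus strand), Uqcr11 at chr10:80406822-80407071 (minus strand), Cox8a at chr19:7217617-7217866 (minus strand) and Atp5l at chr9:44920743-44920992 (minus strand).
Uqcr10: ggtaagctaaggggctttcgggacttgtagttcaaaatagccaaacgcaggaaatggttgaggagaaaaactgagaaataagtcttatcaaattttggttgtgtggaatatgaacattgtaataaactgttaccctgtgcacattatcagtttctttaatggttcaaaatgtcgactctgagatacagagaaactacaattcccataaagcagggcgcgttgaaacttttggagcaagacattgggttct
Uqcr11: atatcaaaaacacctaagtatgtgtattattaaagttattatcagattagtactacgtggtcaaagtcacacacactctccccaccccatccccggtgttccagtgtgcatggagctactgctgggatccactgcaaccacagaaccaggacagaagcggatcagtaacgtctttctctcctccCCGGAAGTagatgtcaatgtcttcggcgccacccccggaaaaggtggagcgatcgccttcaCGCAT
Cox8a: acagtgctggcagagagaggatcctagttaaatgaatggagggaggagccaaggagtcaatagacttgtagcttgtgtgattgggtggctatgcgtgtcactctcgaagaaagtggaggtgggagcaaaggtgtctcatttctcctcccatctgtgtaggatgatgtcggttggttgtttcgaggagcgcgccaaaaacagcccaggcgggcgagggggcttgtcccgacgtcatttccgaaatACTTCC
Atp5l: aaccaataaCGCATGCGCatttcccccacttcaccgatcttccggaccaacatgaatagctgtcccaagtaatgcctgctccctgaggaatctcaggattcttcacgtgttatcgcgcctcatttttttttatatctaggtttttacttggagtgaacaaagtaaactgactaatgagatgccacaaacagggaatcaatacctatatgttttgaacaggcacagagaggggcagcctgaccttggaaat

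Both strands of windows of 300 bases, 250 before and 50 after the start, were searched for 4 motifs, and matches of different motifs may overlap. The NRF1 core GCGCANGCG was in 26.4% of the 72 windows of the 67 members in the table and in 6.25% of all 32851 windows. The ETS motif CCGGAAGT, bound by GABPA, was in 6.94% against 3.89%. The YY1 motif ATGGCGGC was in 8.33% against 2.24%, and the receptor motif TNAAGGTCA in 4.17% against 1.28%. Member windows also had a median of 58.5% G and C, against 52.7% for all windows. Their median count of the pair CG was 19, against 7 for all windows. The NRF1, ETS and YY1 motifs contain that pair, and its part in the motif shares was not tested. Uqcr11 held an ETS match beginning 66 bases before its start and an NRF1 match beginning 5 bases before it, so that only the first bases of the latter are in capitals above. Cox8a held ETS matches 6 bases before and 32 bases after its start, and Atp5l an NRF1 match 241 bases before it. In Cox8a the motif lies on the opposite strand, and its capitals break off at the start site. The Uqcr10 window held none of the motifs. Among the 18 genes with a window whose groups did not overlap, 5 held any of the 4 motifs, and among the 49 other members 21 did. A match is a run of letters and not a measured binding site.

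In each of the 5 complexes most subunit genes had slightly lower means in TGFB than in wildtype corneas, and no single gene passed the test. Of the 83 genes, 75 had a lower mean in TGFB arrays, which is 90.4%, beside 52.6% of all genes. Their median difference was -0.20 on the log2(signal + 16) scale (TGFB minus wildtype), beside -0.014 over all genes, and the median moderated standard error (SE) of a member was 0.15. Limma called 0 members at an adjusted p under 0.05, as it called 0% of all genes, and the smallest adjusted p of a member was 0.623. Before adjustment, 17 members were lower at a p under 0.05 (20.5%, beside 4.42% of all genes) and 0 were higher (beside 2.65%). For 20 members (24.1%) every TGFB array lay below every wildtype array, beside 2.45% of all genes. No member lay wholly above, beside 1.49% of all genes.

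The count at the unadjusted threshold rested on single arrays, while most members stayed lower with any 1 array left out. The count was 7 without TGFB 1 (8.43% of members, beside 3.24% of all genes in that fit), 8 without TGFB 4 (9.64%, beside 3.92%) and 9 without wildtype 1 (10.8%, beside 3.35%). Without wildtype 4 it was 17 (20.5%), but there the share of all genes was 8.16%. Without the 3 arrays rich in cornified epidermis transcripts (TGFB 1, TGFB 2 and wildtype 2) it was 3, and that share was close to the background (3.61%, beside 2.61%). Over the 8 fits that each left out an array, between 73 and 78 members had lower means, and the median difference ran from -0.23 to -0.18. All members were read on the same arrays, and many rose and fell together. A member's median correlation with the others ran from -0.39 (Ndufa4l2) to 0.67 (Ndufs8). These counts are therefore not counts of separate observations. Members were brighter than most genes, so the 69 with a mean of at least 9 were also set beside the 2922 genes of that brightness, a limit chosen after the values were seen. Of these 69, 67 had lower means (97.1%, beside 54.7%), 15 were lower at the unadjusted threshold (21.7%, beside 4.18%) and 18 lay wholly below (26.1%, beside 3.42%). The median was -0.21 for them and -0.021 for genes of that brightness.

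**Figure D1:**
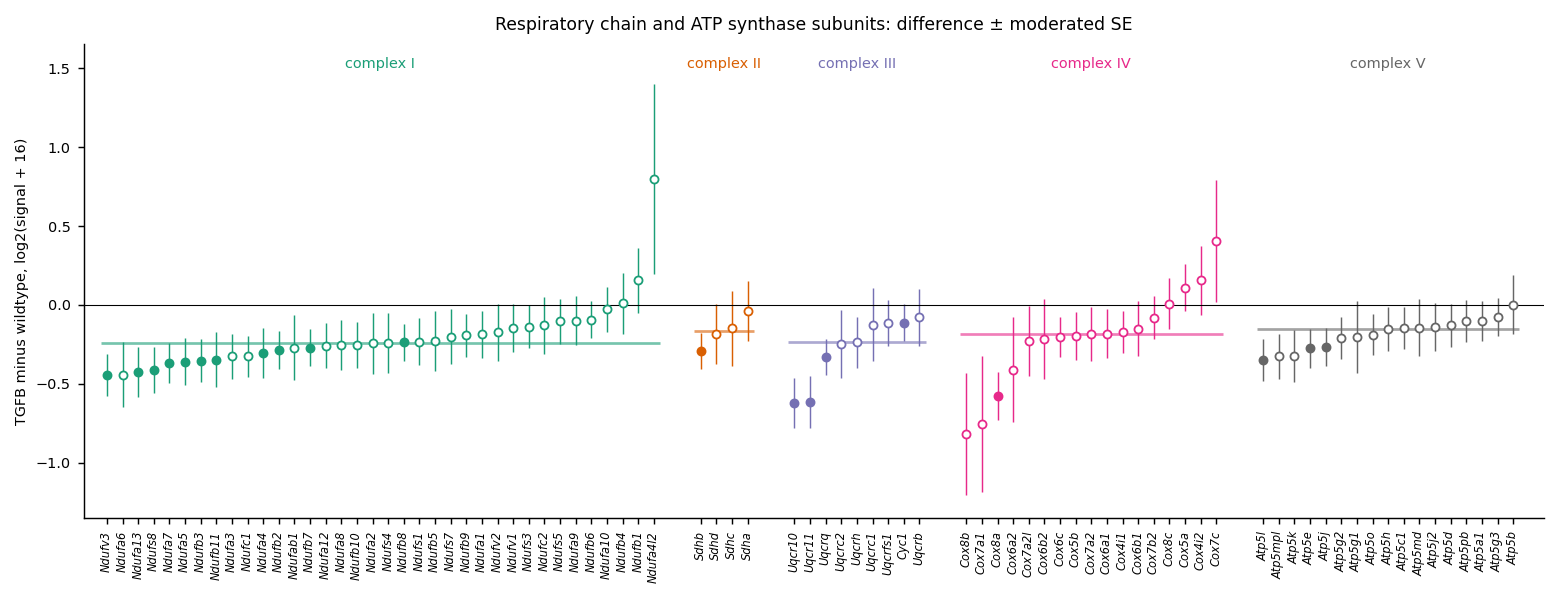
Difference between TGFB and wildtype (log2(signal + 16), points) with its moderated SE (bars) for the 83 genes, ordered within complexes I to V, with the median of each complex as a line. Filled points are the 20 genes whose groups do not overlap; all 20 lie below 0, and 8 open points lie above it.

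The arrays differed in more than the groups. The deposited signals had been brought to the same 2% trimmed mean on every array. The ratio of the Gapdh control signal at the 3' end to that at the 5' end rises as RNA is degraded, and was 2.88 to 3.55 for TGFB and 2.19 to 6.41 for wildtype, highest in wildtype 4. The arrays also held transcripts of other tissues. Averaged over marker lists as log2(signal + 16), 8 pigment cell, iris and ciliary body genes had 7.60 to 9.28 in TGFB, against 9.22 to 11.55 in wildtype arrays, all 8 lower in TGFB. For 9 retina genes the ranges were 5.05 to 5.45 and 5.27 to 8.04, with all 9 lower. For 18 skeletal muscle genes they were 9.33 to 10.02 and 9.33 to 10.87, with 15 lower. For 12 keratocyte genes they were 10.69 to 11.07 and 11.18 to 11.39, with all 12 lower, and for 7 corneal endothelial genes 7.67 to 8.71 and 8.25 to 9.26, with all 7 lower. The 12 corneal epithelial genes had 10.06 to 10.62 and 9.68 to 10.76, with 6 lower, the 11 lens genes 4.68 to 9.94 and 5.12 to 10.77, with all 11 lower, and the 7 cornified epidermis genes 6.48 to 12.59 and 6.24 to 11.45, with 0 lower. That last list was at 12.22, 12.59 and 11.45 on TGFB 1, TGFB 2 and wildtype 2, and at most 7.20 elsewhere. The 8 macrophage and blood genes had 7.00 to 7.43 and 7.14 to 7.96, with 6 lower. No gene of these 9 lists stayed under a signal of 16 on every array, so markers of the cornea and of its neighbours were both present. That limit is passed by a gene seen on a single array, as Rpe65 on wildtype 1 (250, beside at most 6.28 elsewhere). It cannot tell how much of the RNA was corneal. The 6 fat genes had 5.48 to 6.06 and 5.09 to 5.70, with 2 lower, and Ucp1, Lep and Retn stayed under a signal of 16 on all arrays. The part of these lists in the subunit differences was not tested beyond the covariates given next. In bulk tissue, fewer cells of a type and less RNA per cell cannot be told apart.

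Each array was then described by the median deviation of the 83 genes from their own 8-array means. It was -0.16, -0.11, -0.032 and -0.16 in TGFB 1 to 4, and 0.14, 0.086, 0.042 and 0.15 in wildtype 1 to 4. The groups did not overlap, with TGFB 3 and wildtype 3 nearest to each other. Cytosolic ribosomal protein genes, 43 short transcripts taken as a reference list, ran from -0.086 to 0.045 in TGFB and from -0.32 to 0.62 in wildtype arrays, with wildtype 1 lowest and wildtype 4 highest. Wildtype 4 held the highest value of 34 subunit genes and the lowest of 9. Wildtype 1 held the highest of 28, and TGFB 1 the lowest of 26. With the mean of the pigment list in the fit, added after the values were seen, the members' median was -0.20 beside -0.0094 for all genes, 78.3% of members were lower, and 3 passed the unadjusted threshold (3.61%, beside 1.71%). The pigment list itself was at -1.79 between the groups, and in 8 arrays its part and that of the genotype cannot be cleanly told apart. With the muscle list mean as a covariate the median was -0.22 and 18.1% of members were lower at the unadjusted threshold, beside 3.75% of all genes.

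**Figure D2:**
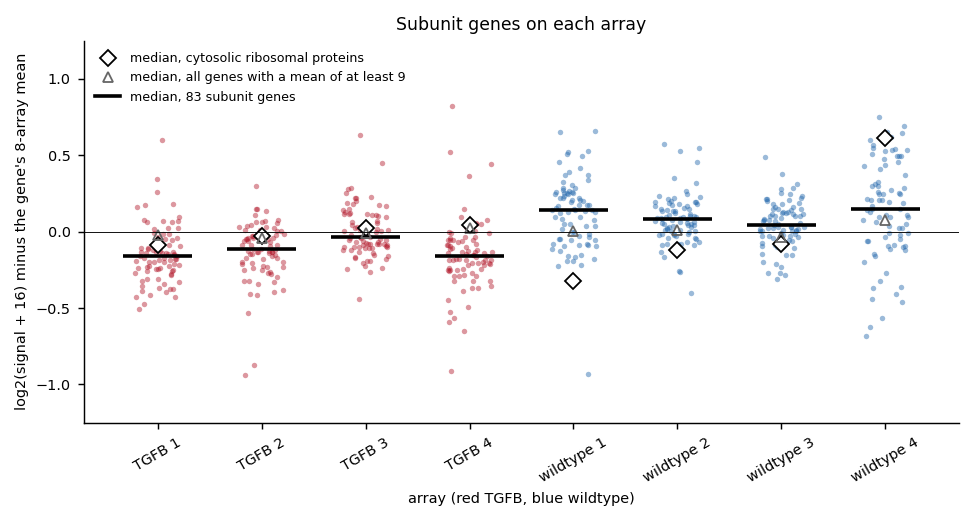
Deviation of each of the 83 subunit genes from its own 8-array mean (log2(signal + 16), points) on every array, with the median of the genes as a bar, that of ribosomal protein genes as a diamond and that of all genes with a mean of at least 9 as a triangle. The bars lie at or below -0.032 on the TGFB arrays and at or above 0.042 on the wildtype arrays, and 4 of 664 points fall outside the axis.

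Complex I, the NADH dehydrogenase, was the largest complex by gene count and also gave the most members whose groups did not overlap. Of its 36 genes 33 had lower means, and the median difference was -0.24. At an unadjusted p under 0.05, 10 were lower (beside 4.42% of all genes), and 11 lay wholly below wildtype (beside 2.45%). In complex III 4 of 9 genes lay wholly below. The same shares of all genes stand beside the counts of complexes II to V. Ndufv3, an accessory subunit of the NADH-binding arm, gave 1109, 1289.6, 1319 and 1281 signal units in TGFB 1 to 4 and 1955, 1582, 1737 and 1561 in wildtype 1 to 4. Every TGFB array was below every wildtype array, with TGFB 1 lowest and wildtype 1 highest. The log2 difference was -0.44 (SE 0.13, limma adjusted p = 0.639). Ndufa7, another accessory subunit, had 485, 593, 563 and 492 against 663, 719.8, 702 and 674, which is -0.37 in log2 units (SE 0.13, adjusted p = 0.668). Again no arrays overlapped, and all 5 probe sets of Ndufa7 were lower in TGFB.

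The 6 redox core subunits of complex I, most of which bind its flavin or iron-sulfur clusters, all had lower means, with a median difference of -0.19. Ndufs8, an iron-sulfur subunit of the ubiquinone-binding module, stood out among them. Its signals were 2613, 2823, 3105 and 2951 in TGFB, beside 3887, 3343, 3504 and 4677 in wildtype arrays, a difference of -0.41 (SE 0.15, adjusted p = 0.668). Wildtype 4 was highest, yet the other wildtype arrays also lay above all TGFB arrays, and 5 of 6 probe sets were lower. The NADH-binding Ndufv1 was 10.54 ± 0.22 in TGFB and 10.69 ± 0.13 in wildtype (mean ± SD of log2(signal + 16), n = 4), Ndufv2 was 11.63 ± 0.18 against 11.80 ± 0.30, and the large iron-sulfur subunit Ndufs1 was 9.45 ± 0.17 against 9.68 ± 0.17. For these 3 the groups overlapped, with adjusted p of 0.873, 0.873 and 0.796.

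Accessory subunits of complex I, which surround the core and hold the arms together, made up most of the others. Leaving aside Ndufa4 and Ndufa4l2, taken up below, all 12 others of the NDUFA kind had lower means (median -0.26). So had 11 of 13 of the NDUFB and NDUFC kind (median -0.24). Ndufa13, also known as the cell death regulator GRIM-19, had signals of 4253 to 4824 against 5226 to 7946, a difference of -0.43 (SE 0.16). Ndufb3 had 1162 to 1535 against 1597 to 1808 (-0.35, SE 0.13), Ndufb7 2752 to 3162 against 3378 to 3676 (-0.27, SE 0.12) and Ndufb2 1138 to 1280 against 1367 to 1563 (-0.28, SE 0.12). None of these ranges overlapped, and the adjusted p of the 4 genes lay between 0.674 and 0.702. Ndufa5, Ndufb8 and Ndufb11 were also free of overlap, with differences of -0.36 (SE 0.15), -0.24 (SE 0.12) and -0.35 (SE 0.17). Ndufb1, Ndufb4 and Ndufs5 had dim probe sets, with signals of at most 93.9, 16.2 and 48.7, and differences of 0.16 (SE 0.21), 0.010 (SE 0.19) and -0.10 (SE 0.14).

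Ndufa4, named for complex I but now placed with cytochrome c oxidase, has a hypoxia-inducible paralog, Ndufa4l2. The counts by complex follow the symbols, so both are counted in complex I, and Ndufa4 is among its 11 genes without overlap. Ndufa4 had signals of 1523, 1757, 1682 and 1406 in TGFB, beside 2513, 1779.6, 1781 and 1861 in wildtype arrays, a difference of -0.30 (SE 0.16, adjusted p = 0.753). The groups did not overlap, but 3 wildtype arrays lay close to TGFB 2. Ndufa4l2 had 170.1, 334, 101 and 74.1 against 93.4, 153, 127 and 12.6. Its difference of 0.80 (SE 0.60, adjusted p = 0.828) was the highest of the 83 genes, with wide overlap and wildtype 4 far below the others. Without wildtype 4 it was 0.23 (adjusted p = 0.871).

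Complex II, succinate dehydrogenase, also serves the citrate cycle. All 4 of its genes had lower means, and 1 was free of overlap. Sdhb, the iron-sulfur subunit, had signals of 2590.1, 2625, 2832 and 2582 in TGFB, beside 3387, 3120.1, 3264 and 3243 in wildtype arrays. The groups were clear of each other and narrow, and the difference was -0.29 (SE 0.11, adjusted p = 0.677). The flavoprotein Sdha was 10.43 ± 0.27 against 10.46 ± 0.27, a difference of -0.039 (SE 0.19), while a second bright probe set gave -0.31 (SE 0.16). The membrane anchors Sdhc and Sdhd had -0.15 (SE 0.24) and -0.18 (SE 0.19). For Sdha, Sdhc and Sdhd the groups overlapped, and the adjusted p lay between 0.873 and 0.983. The median of complex II was -0.17, and it turned to 0.027 with the muscle list mean as a covariate. It was -0.022 without wildtype 1 and -0.25 without wildtype 4, so its size rested on single arrays.

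Complex III, the cytochrome bc1 complex, had lower means for all 9 genes, a median of -0.24, and 4 genes without overlap. Its smallest subunits gave some of the lowest p-values among the members. Uqcr10 had signals of 352, 380.5, 446 and 364 in TGFB, beside 588, 481, 628 and 719 in wildtype arrays. All 4 TGFB arrays lay below wildtype 2, the lowest wildtype array, and the difference was -0.62 (SE 0.16, adjusted p = 0.623), or -34.8% as a percentage. Its other probe sets, both dim, gave -0.25 (SE 0.23) and 0.0054 (SE 0.15), and the average of all 3 gave -0.29. Uqcr11 had 1581, 2099, 1757 and 1378 against 2745, 2394, 2315 and 2949, a difference of -0.62 (SE 0.17, adjusted p = 0.623). The groups were again apart, with TGFB 2 and wildtype 3 nearest. Uqcrq, another small subunit, had 1010.2, 973, 1090.0 and 1035 against 1369, 1281, 1263 and 1264, a difference of -0.33 (SE 0.12, adjusted p = 0.668). The other Uqcrq probe sets, all dim, disagreed in direction, with 0.051 (SE 0.20), 0.51 (SE 0.21) and -0.59 (SE 0.27).

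Smaller differences were measured for the redox subunits of complex III. Cytochrome c1, Cyc1, had 3223 to 3540.4 against 3548 to 3977, a difference of -0.11 (SE 0.12, adjusted p = 0.873) in which the highest TGFB and lowest wildtype array almost touched. The Rieske iron-sulfur protein Uqcrfs1 had -0.11 (SE 0.15), and the core proteins Uqcrc1 and Uqcrc2 had -0.12 (SE 0.23) and -0.25 (SE 0.21). Uqcrb, a small subunit, had 10433 to 11818 against 10016 to 16665, a difference of -0.079 (SE 0.18). Wildtype 4 held that upper value, and without it the difference was 0.089. It also turned to 0.0071 after quantile normalization, so Uqcrb had no settled direction. The median of complex III was -0.15 without wildtype 4, and -0.096 without wildtype 1 and wildtype 4.

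**Figure D3:**
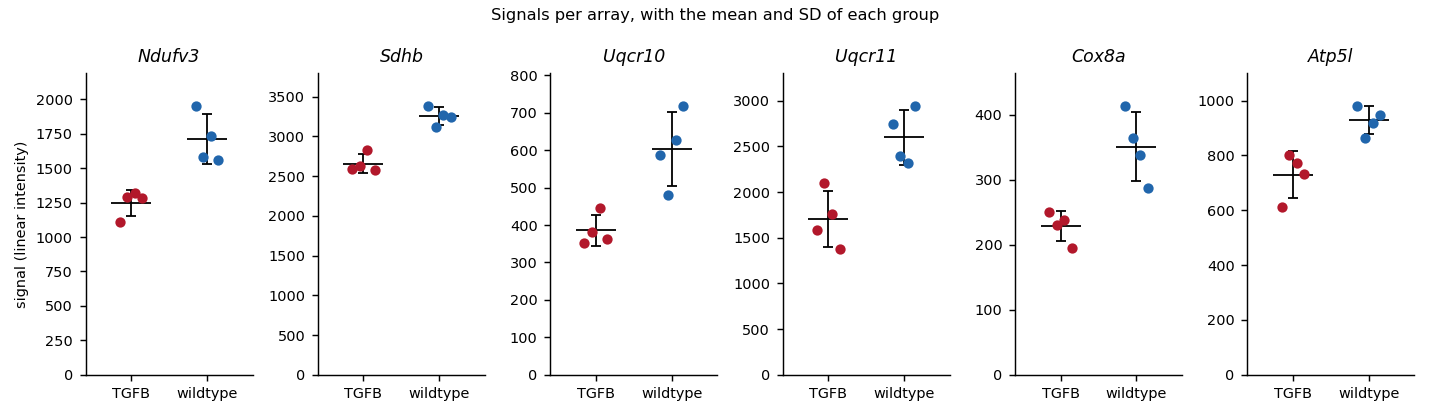
Linear signals per array of Ndufv3, Sdhb, Uqcr10, Uqcr11, Cox8a and Atp5l in 4 TGFB and 4 wildtype corneal samples, with the mean (line) and SD (bars) of each group; axes start at 0. In every panel the 4 TGFB points lie below the 4 wildtype points.

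Complex IV, cytochrome c oxidase, was counted by symbol and so without Ndufa4. It had 13 of 17 genes with lower means and a median of -0.18, with 1 gene free of overlap. That gene was Cox8a, the common form of the smallest subunit. Its signals were 251, 229.97, 239 and 196 in TGFB, beside 414, 364, 338 and 288 in wildtype arrays. TGFB 4 was lowest and wildtype 1 highest, and the difference was -0.58 (SE 0.15, adjusted p = 0.623). Its probe set is of a kind that can match related transcripts, but a second one gave -0.53 (SE 0.12), while the last one, near background, gave -0.061 (SE 0.18). The other common forms lay closer together. Cox4i1 was 12.36 ± 0.06 in TGFB and 12.53 ± 0.16 in wildtype, Cox5b 12.53 ± 0.10 against 12.73 ± 0.23, Cox6a1 12.39 ± 0.07 against 12.57 ± 0.26, Cox6b1 12.88 ± 0.015 against 13.03 ± 0.32 and Cox7a2 12.79 ± 0.12 against 12.97 ± 0.30. In each of these 5 the groups overlapped, wildtype 4 was the highest array, and the adjusted p lay between 0.828 and 0.884. Without wildtype 4 the difference of Cox6b1 was 0.0072.

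Of the oxidase genes 4 had higher means in TGFB, 3 of them from dim probe sets. Cox5a, which with Cox5b lies on the matrix side of the enzyme, had 3341, 3381, 3273 and 3313 in TGFB, beside 3526, 3573, 2885 and 2477 in wildtype arrays, a difference of 0.11 (SE 0.15, adjusted p = 0.911). The TGFB values fell inside the wildtype range, and its 3 probe sets all gave differences above 0. Cox7c had dim probe sets only, with signals of at most 112 and a difference of 0.41 (SE 0.39). Cox7a2l, which helps join complexes III and IV, had -0.23 (SE 0.22), with wildtype 4 at 8359.8 and all other arrays between 3954 and 5358. The median of complex IV was -0.085 without wildtype 4, -0.091 without wildtype 1 and wildtype 4, and -0.34 with the pigment covariate.

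The muscle forms of oxidase subunits varied widely between arrays of the same group. Cox8b had signals of 329, 156, 349 and 159 in TGFB, beside 846, 394, 322 and 286 in wildtype arrays, a difference of -0.82 (SE 0.39, adjusted p = 0.712). This was the lowest difference of the 83 genes, yet wildtype 3 and wildtype 4 lay among the TGFB arrays. Cox7a1 had 61.0, 47.3, 45.9 and 42.5 against 254, 105, 66.9 and 36.5, a difference of -0.75 (SE 0.43, adjusted p = 0.773). Wildtype 1 was far above the rest, and wildtype 4 was the lowest array of all. Cox6a2 had 665, 295, 764 and 346 against 768, 834, 457 and 575, a difference of -0.41 (SE 0.33, adjusted p = 0.841), with overlap of most arrays. The skeletal muscle list mean was 10.02, 9.56, 9.97 and 9.33 in TGFB, beside 10.87, 10.41, 10.01 and 9.33 in wildtype arrays, so wildtype 1 was highest in it as in Cox8b and Cox7a1. Its genes did not move as one, however: wildtype 1 was highest for 6 of 18, among them Myh1 (3936, beside at most 335 elsewhere) and Mb (2781, beside at most 851), and lowest for Ttn (2502, beside up to 5334). Brown fat also uses Cox7a1 and Cox8b. Of the 6 fat genes measured, 2 had lower means in TGFB. Ucp1 had signals of 3.19 to 10.2 and a difference of -0.14 (SE 0.14). Cidea had 19.4 to 106 (0.43, SE 0.35), Fabp4 255 to 1545 (0.68, SE 0.40) and Adipoq 1.05 to 135 (0.60, SE 0.60). The part of fat in these values was not tested. Without wildtype 1 the difference was -0.49 for Cox8b and -0.32 for Cox7a1, and without wildtype 4 it was -1.11 for Cox7a1. With the muscle list as a covariate the difference of Cox8b was -0.34 and that of Cox7a1 -0.21, and with the pigment list, added later, Cox7a1 was at 0.0056. Cox4i2, Cox6b2, Cox7b2 and Cox8c, forms of lung or testis, had signals of at most 18.1, 82.6, 5.76 and 66.1, and differences between -0.21 and 0.16.

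**Figure D4:**
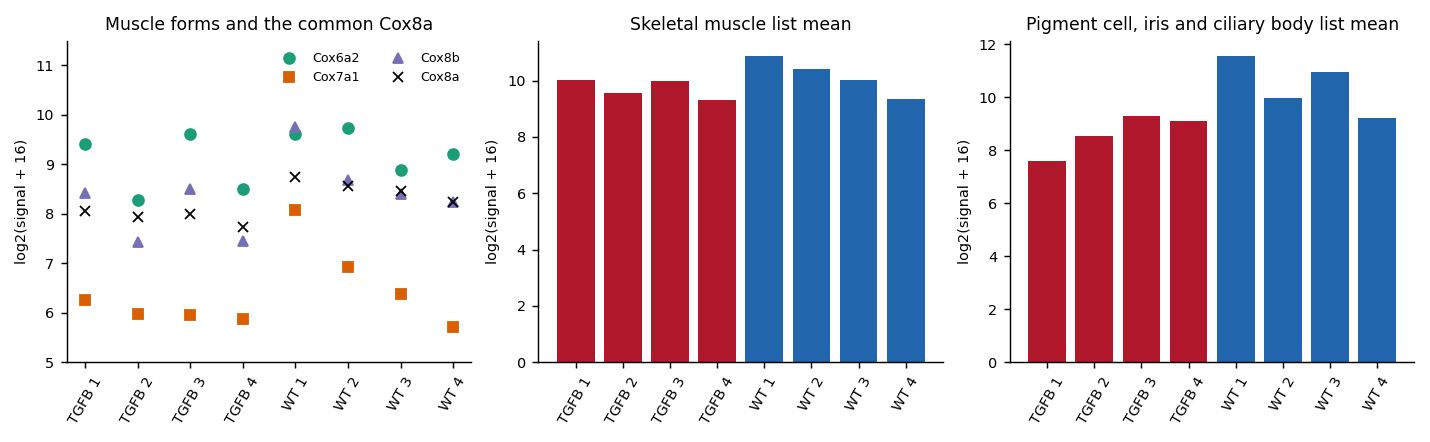
Left, log2(signal + 16) of the muscle forms Cox6a2, Cox7a1 and Cox8b and of the common Cox8a on each array (WT, wildtype); middle and right, mean log2(signal + 16) of the skeletal muscle and pigment cell lists (red TGFB, blue wildtype). Wildtype 1 is highest for Cox7a1, Cox8b and both lists, while Cox8a is lower on every TGFB than on every wildtype array.

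Complex V, the ATP synthase, had 16 of 17 genes with lower means and a median of -0.15, with 3 genes free of overlap. Atp5l, the small g subunit of the membrane part, had signals of 612, 803, 774 and 733 in TGFB, beside 982, 865, 919.8 and 949 in wildtype arrays. The groups were apart, with TGFB 2 nearest to wildtype, and the difference was -0.35 (SE 0.13, adjusted p = 0.677). Atp5mpl, another small membrane subunit, had 784 to 998 against 971 to 1175, a difference of -0.33 (SE 0.14, adjusted p = 0.699) with TGFB 3 inside the wildtype range. Atp5j, of the peripheral stalk, had 2648 to 3102 against 3378 to 3676 (-0.27, SE 0.12), and Atp5e, of the central stalk, had 1418 to 1727 against 1771 to 1926 (-0.27, SE 0.12). Neither gene's ranges overlapped, with adjusted p of 0.710 and 0.712.

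The groups overlapped for the alpha and beta subunits of the catalytic head and for the gamma subunit of the central stalk. The beta subunit Atp5b was 11.63 ± 0.15 in TGFB and 11.63 ± 0.34 in wildtype, with a difference of 0.0023 (SE 0.19) that turned to -0.019 after quantile normalization. The alpha subunit Atp5a1 had -0.10 (SE 0.12) and a second bright probe set 0.075 (SE 0.17), and the gamma subunit Atp5c1 had -0.15 (SE 0.13). The 5 head and central stalk genes had a median of -0.13, against -0.32 for the 5 small membrane subunits, a contrast that was described and not tested. The c ring, through which protons pass, is made from 3 genes with the same mature product. Atp5g1 had -0.20 (SE 0.23), Atp5g2 -0.21 (SE 0.13) and Atp5g3 -0.077 (SE 0.12), each with overlap and adjusted p between 0.796 and 0.925.

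Members with several probe sets allowed a check within the array. Of 49 such genes, all probe sets were lower in TGFB for 30, all higher for 2, and the sets disagreed for 17. This split was not set beside one for all genes. Some of the disagreeing sets were dim, such as a higher one of Cox5b (log2 mean 4.27) and of Uqcrq (4.88). Others were bright, such as a higher one of Atp5a1 (11.61). Of the 87 probe sets not used above, 65 were lower in TGFB, with a median difference of -0.19. Of all probe sets tested, 48.4% were lower, with a median of 0.0090. The 20 members read by shared probe sets (suffix _s_at or _x_at) had a median of -0.24, and the other 63 had -0.20. The genes themselves lie on 19 chromosomes in the RefSeq table, with at most 9 on one.

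Neighbouring gene groups of mitochondrial metabolism were read from the same fit, and none of their genes passed at an adjusted p under 0.05. Beside their counts stand these shares of all genes: 4.42% lower and 2.65% higher at the unadjusted threshold, 2.45% wholly below and 1.49% wholly above. Of 45 assembly factors, which build the complexes but do not stay in them, 30 had lower means (median -0.12), 8 were lower and 1 higher at the unadjusted threshold, with 6 wholly below wildtype and 1 wholly above. The gene above was Sdhaf1, a complex II factor, with 188 to 209 against 114 to 181 (0.36, SE 0.15). Tmem126a, needed for complex I assembly, had signals of 1013, 1129, 1168 and 1243 in TGFB, beside 1581, 1525, 1602 and 1607 in wildtype arrays. These groups were far apart for their spread, with a difference of -0.47 (SE 0.12, adjusted p = 0.623). Sdhaf4, another complex II factor, had -0.39 (SE 0.13), and Coa6, which delivers copper to the oxidase, had -0.43 (SE 0.14), both without overlap.

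Regulators of these genes were split in direction. Of 22, 10 had lower means, with a median of 0.025 and 1 gene past the unadjusted threshold, Ppard, a lipid-sensing receptor (0.57, SE 0.19), which was dim at signals of at most 30.8. The coactivator Ppargc1a had 105, 54.4, 187 and 110.3 against 389.8, 130.1, 239 and 118, a difference of -0.80 (SE 0.41, adjusted p = 0.749), with wildtype 1 highest and the groups overlapping. The deacetylase Sirt1 had 0.27 (SE 0.14). Among the factors whose motifs were searched, Nrf1 had 0.21 (SE 0.24), Gabpa -0.034 (SE 0.23) and Yy1 0.13 (SE 0.21). The estrogen-related receptors Esrra, Esrrb and Esrrg had -0.060 (SE 0.19), 0.14 (SE 0.40) and -0.10 (SE 0.32). For each of these factors the groups overlapped.

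Fuel genes upstream of the chain were mixed. Of 21 citrate cycle and pyruvate dehydrogenase genes, 13 had lower means (median -0.045). At the unadjusted threshold 2 were lower and 1 higher, beside 4.42% and 2.65% of all genes. Pdk1, a kinase that shuts off pyruvate dehydrogenase, had signals of 474, 534, 552 and 572 against 407, 363, 356 and 441. Every TGFB array was above every wildtype array, and the difference was 0.43 (SE 0.13, adjusted p = 0.645). The citrate cycle enzymes Idh3b and Suclg2 had -0.35 (SE 0.15) and -0.35 (SE 0.16). Of 17 glycolysis genes 11 had lower means (median -0.057). At the unadjusted threshold 1 was lower and 1 higher, beside the same shares of all genes. Hk2, an inducible hexokinase, had 614, 599, 344 and 311 against 267, 264, 224 and 131, a difference of 1.01 (SE 0.29, adjusted p = 0.639), with no overlap. Its highest values were in TGFB 1 and TGFB 2, which were also rich in cornified epidermis transcripts. Wildtype 2, also rich in them, was at 264, beside 267 in wildtype 1. Ldhb, the lactate dehydrogenase form of oxidative tissue, had -0.60 (SE 0.21), and Slc16a3, a lactate exporter with signals of at most 33.8, had 0.45 (SE 0.27).

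Of 14 carriers and channels of the mitochondrial membranes, with cytochrome c, 12 had lower means, but the median was -0.048 and none passed the unadjusted threshold. The pyruvate carrier Mpc1 had -0.38 (SE 0.24), the citrate carrier Slc25a1 0.19 (SE 0.13) and the ADP/ATP carrier Slc25a4 -0.25 (SE 0.21). Of the 43 ribosomal protein genes 26 had lower means, with a median of -0.033, 0 past the unadjusted threshold and 0 without overlap.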

How the data were processed

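Total RNA of 8 corneal samples was measured on 1-colour mouse arrays with 45101 probe sets. The authors deposited linear signal intensities, 1 value per probe set and array. For their software and scaling nothing is stated in the labels or headers, but all 8 arrays have the same 2% trimmed mean. Of the probe sets, 34945 carried 1 gene symbol, 932 several and 9160 none, and 64 were controls. The probe set with the highest mean stood for each of 18193 genes. Intensities were used as log2(signal + 16), with no further normalization, filter or covariate, and tested with limma 3.58.1 (lmFit and eBayes, about 9.03 degrees of freedom) in R 4.3.3, with Benjamini-Hochberg adjustment over all genes. Differences on this scale understate those of dim genes. The script was checked on simulated data.

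The members, the gene and marker lists and the tests were chosen with earlier results of these data known. Single genes were named by rule: the smallest p-values (up to 2 per direction and complex) and extreme differences of each complex, tissue isoform sets, catalytic and redox subunits, and up to 3 genes with the smallest p-values in each other list. Ndufs8, Uqcrq, Atp5j, Atp5e, Mb, Myh1, Ttn, Ucp1, Cidea, Fabp4, Adipoq, Sdhaf1, Cox7b2 and the further accessory subunits of complex I were named after their values were seen. So were the regulators Nrf1, Gabpa, Yy1, Esrra, Esrrb and Esrrg. The ribosomal list was taken by symbol, and Rps19bp1, which is no ribosomal protein, was removed from it after its values were seen. Alternatives were the offset, quantile normalization, median centring, a low filter (80 members passed), probe set averaging, variance models, array weights, left-out arrays and marker covariates. With 4 arrays a group, the number of arrays limits precision. Promoter sequences came from RefSeq (GRCm38.p6) for 67 members.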

Additional observations from a re-analysis of the deposited data

Results flagged for a closer look

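Of 96 groups of 4 arrays checked, 5 held an array far from the other 3, its gap to the nearest one, as a share of the group's whole range, being above Dixon's 95% critical value. Chance gives about 1 such group in 20. The share was 0.831 for Ndufv3 in TGFB (TGFB 1 lowest), 0.851 for Cox7a2l in wildtype (wildtype 4 highest), 0.870 for Ndufa4 in wildtype (wildtype 1 highest), 0.969 for Atp5g1 in wildtype (wildtype 4 lowest) and 0.915 for Ndufv2 in wildtype (wildtype 4 highest). Thus 3 of the 5 were wildtype 4, the array with the highest Gapdh 3'/5' ratio, and the part of that array's RNA in these values was not tested.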

How the results depend on the processing

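No setting called a member at an adjusted p under 0.05. Of 42 genes named by rule, 29 kept their direction under all settings run and 13 turned under at least 1; the cause was not tested. No paired analysis was possible because the labels do not tie same-numbered arrays to a shared animal, litter or batch.

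The count of lower members at an unadjusted p under 0.05 (17) was 7 with an offset of 1 (8.43%, beside 3.96% of all genes), 3 without the 3 arrays rich in cornified transcripts, 3 with the pigment covariate, and 7 to 17 with 1 array left out. The upper end was the fit without wildtype 4, where 8.16% of all genes were lower at that threshold. Without wildtype 1 and 4 the count was 7, a share near the background (8.43%, beside 6.17%). With each probe set tested alone it was 26 of 170 (15.3%, beside 3.16% of all probe sets), with 1 higher, and 140 had a lower mean (82.4%, beside 48.4%). Members wholly below numbered 31, and 1 above, without the cornified arrays (37.3%, beside 11.3% of all genes) and 32 without wildtype 1 and 4 (38.6%, beside 12.03%), against 24.1% beside 2.45% on all arrays; fewer arrays make gaps easier.

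The median of complex IV was -0.12 with array weights, -0.25 with the muscle covariate, -0.34 with the pigment covariate, -0.091 without wildtype 1 and 4, and -0.24 to -0.085 with 1 array left out. That of complex I was -0.18 with the pigment covariate, of complex II 0.027 with the muscle covariate and -0.25 to -0.022 with 1 array left out, and of complex III -0.096 without wildtype 1 and 4.

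Directions turned as follows. Quantile normalization gave -0.019 for Atp5b, -0.025 for Cox8c and 0.0071 for Uqcrb. Median centring gave -0.027 for Atp5b and -0.021 for Cox8c. Averaged probe sets gave -0.010 for Cox8c and 0.041 for Atp5a1. Array weights gave -0.073 for Atp5b, -0.033 for Cox8c and 0.037 for Uqcrb. Without the cornified arrays Sdhd was 0.032 and Uqcrfs1 0.028. The muscle covariate gave -0.029 for Cox8c, 0.14 for Sdha, 0.11 for Sdhc and 0.16 for Uqcrc1. The pigment covariate gave 0.0041 for Sdhd, 0.49 for Cox6b2, 0.0056 for Cox7a1, 0.39 for Sdhc and 0.21 for Uqcrc1. Without wildtype 1 and 4, Atp5b was -0.085, Cox7a2l 0.029, Cox8c -0.11, Sdha 0.031 and Uqcrb 0.058. With 1 array left out, the ranges were -0.15 to 0.097 for Atp5b, -0.24 to 0.0072 for Cox6b1, -0.052 to 0.14 for Cox8c, -0.16 to 0.062 for Sdha, -0.36 to 0.046 for Sdhc, -0.16 to 0.089 for Uqcrb and -0.29 to 0.075 for Uqcrc1.

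The pigment covariate, the fits without wildtype 1 and 4 and the limit to bright genes were chosen after seeing the data.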
